A study of Caenorhabditis elegans with 24 samples.

Results

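Transcripts of 4 gene families of the Caenorhabditis elegans sperm lineage were followed across strain, UVC treatment and year. The families were the major sperm proteins (symbols starting msp-), the related msd- and ssp- genes, and the spe- genes, which were named for defects in spermatogenesis. A probe set, the group of short probes that reports 1 transcript on an Affymetrix array, was a member when every gene symbol annotated to it started with 1 of these prefixes. This gave 75 of 22548 probe sets, of which 31 were msp, 4 msd, 10 ssp and 30 spe. A further probe set naming msp genes also named other genes, 17 in all, and was left out.

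Whole young adults were reared at 25 °C and taken 24 h after the L4 stage at which the vulval crescent is visible. The strains were wild-type N2, the xpa-1 deletion mutant RB864, outcrossed 3 times, and the glp-1 point mutant JK1107. XPA-1 acts in nucleotide excision repair, and GLP-1 is a receptor of the Notch family that keeps germ cells dividing. Animals received 50 J/m2 of UVC and were frozen 3 h later, or were handled alike without UVC. Each of the 12 combinations of strain, treatment and year (2007 or 2008) was measured on 2 arrays, 24 in all, each made from a pellet of many pooled animals. RNA input and labelling kit changed together with the year, from 500 pg with a TargetAmp kit in 2007 to 100 ng with an Affymetrix kit in 2008, so year, input and kit cannot be told apart. Whether the arrays of a group stand for separate cultures is not stated in the labels, so each p-value below rests on the spread between these arrays, which may be technical.

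Major sperm protein is the main cytoskeletal protein of the crawling nematode sperm, and once released it also signals to oocytes to resume meiosis and to the gonadal sheath to contract. Hermaphrodites make their sperm as late larvae, store them, and then switch to oocytes for the rest of adult life, so that msp genes are transcribed in a short window before adulthood. In glp-1 mutants at the restrictive temperature the germ line stem cells do not proliferate, and the few germ cells that form are known to differentiate as sperm. In whole animals, fewer cells of a type and less RNA per cell cannot be told apart.

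Signal was much lower in 2007: the median of the deposited intensities lay at 4.24 to 8.42 over the arrays of that year and at 68.9 to 190.5 over those of 2008. Levels below are therefore log2(value + 32) after quantile normalization over all 24 arrays, with values below 0 set to 0, which puts the lowest possible level at 5.00. The median SD between the arrays of a group was 0.305 over all probe sets in 2007 and 0.13 in 2008, and 0.981 and 0.354 over the msp probe sets. The xpa-1 transcript was lower on every xpa-1 array than on any N2 array, at 5.00 to 6.59 against 8.92 to 10.07. It was also low on glp-1 arrays, at 5.00 to 7.41, so a low level does not mark the xpa-1 strain alone. The glp-1 transcript stood at 5.00 to 7.39 on glp-1 arrays against 10.40 to 11.15 on all others. Its 7.39 was on glp-1 UV replicate 1 of 2008, and the next highest glp-1 array, control replicate 1 of 2007, was at 6.86. Oocyte and eggshell genes, a list of 17, averaged 11.91 to 12.48 on N2 arrays. On glp-1 arrays they averaged 6.60 to 7.02 in 2007 and 6.68 to 8.59 in 2008, so the glp-1 arrays of 2008 were not alike in this signal.

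The members were not equally separable. Of the 31 msp probe sets 30, and all 4 msd probe sets, carry the suffix that Affymetrix gives to sets whose probes may also bind other sequences, and 7 msp probe sets named several msp genes. The gene table lists 35 msp genes, 4 of them pseudogenes, and 30 were named by a member; 24 of these 30 had another msp gene within 5 genes on the same chromosome. Values of single msp genes are therefore uncertain, and the msp probe sets largely repeat 1 measurement. Levels of the msp sets often moved together from array to array, but not equally in all groups. In the N2 controls of 2007 all 31 were higher in replicate 1 than in replicate 2, by a median of 1.99 on the log2 scale. In 2008 the xpa-1 controls had 19 sets higher in replicate 1 and 9 in replicate 2, with a median difference of 0.13. Some ssp and spe probe sets were shared less: 5 of 10 ssp sets and 0 of 30 spe sets carry that suffix, and 9 spe sets carry the one for several transcripts.

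In N2, major sperm protein transcripts were high on the arrays of 2007 and low on those of 2008. The median level of the 31 msp probe sets was 10.69 and 8.67 on the control arrays of 2007 and 10.41 and 9.13 on the UV arrays of that year. In 2008 it was 5.91 and 6.39 on control arrays and 5.63 and 6.09 on UV arrays. Every array of 2007 thus lay above every array of 2008, although replicate 1 exceeded replicate 2 in 2007 in both treatments. Ranked within its array among all probe sets, an msp probe set stood at a median percentile of 84.7 in 2007 and 39.97 in 2008.

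The xpa-1 mutant showed the same contrast of years. Its median msp level was 9.76 and 10.93 on the control arrays of 2007 and 10.78 and 9.76 on the UV arrays, against 6.16, 6.23, 6.26 and 5.72 in 2008. The percentile was 89.9 in 2007 and 41.7 in 2008. In glp-1 the years were not separated: the median was 6.01 and 8.12 on control arrays and 6.34 and 8.81 on UV arrays in 2007, and 7.52, 6.66, 6.97 and 6.98 in 2008. The 4 glp-1 arrays of 2007 split by replicate number, with both replicates 2 above all arrays of 2008 and both replicates 1 below them. The percentile was 55.9 in 2007 and 53.6 in 2008.

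**Figure D1:**
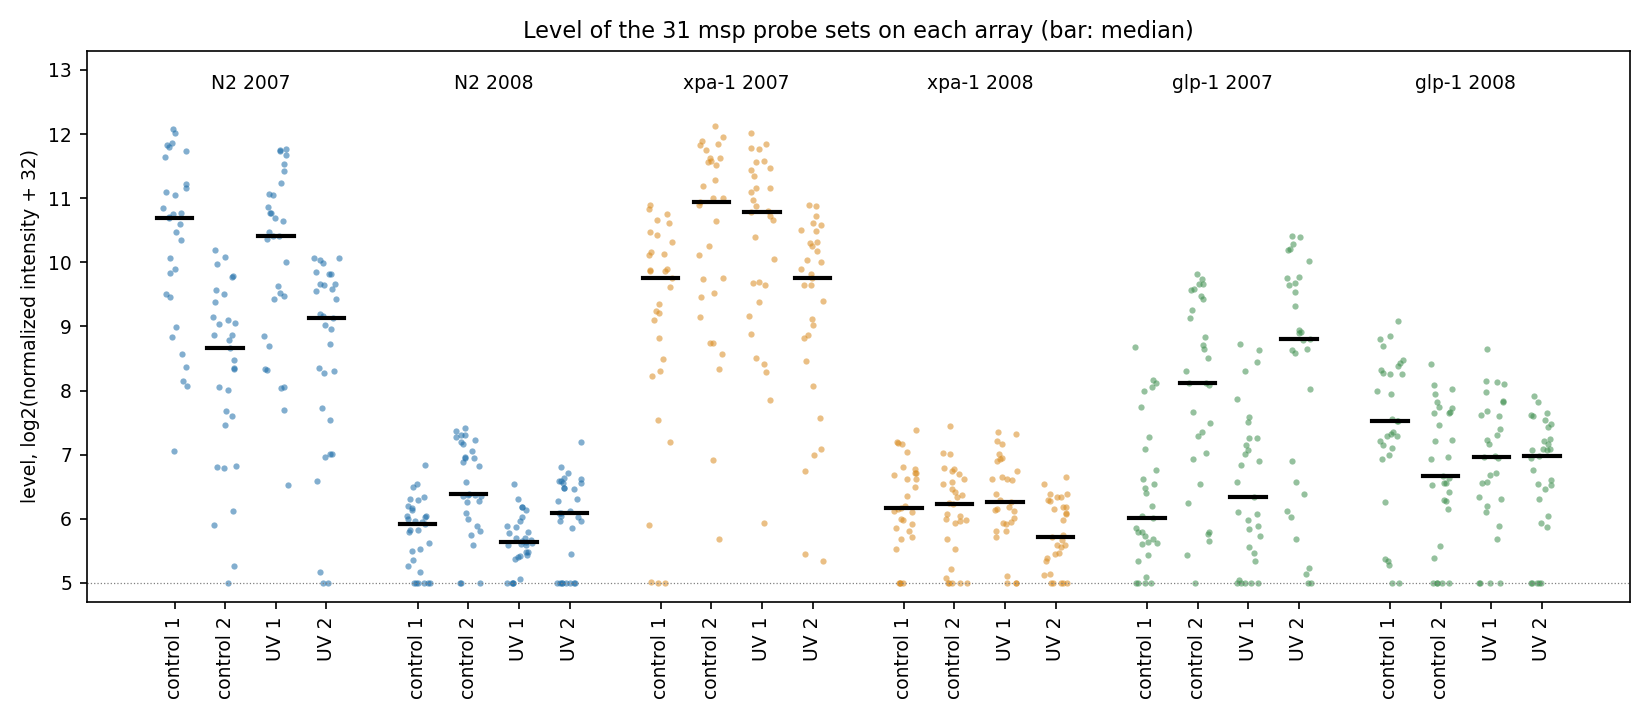
Level of each of the 31 msp probe sets (points) on each of 24 arrays, as log2(normalized intensity + 32), with the median as a bar and the lowest possible level of 5.00 as a dotted line. In N2 and xpa-1 the medians of 2007 lie at 8.67 to 10.93 and those of 2008 at 5.63 to 6.39, while the glp-1 medians of both years overlap.

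Tested probe set by probe set with limma and Benjamini-Hochberg adjustment over all 22548, 40 of the 75 members passed an adjusted p of 0.05 between years in N2, 39 lower in 2008 and 1 higher. Among all probe sets 12% were called lower and 13.2% higher, and the median difference of all was -0.07. By family, 28 of 31 msp, 3 of 4 msd, 3 of 10 ssp and 5 of 30 spe fell, and spe-39 was the member that rose. The median difference was -3.54 for msp, -1.88 for msd, -0.83 for ssp and -0.41 for spe. Without any model, all 4 arrays of 2007 lay above all 4 of 2008 for 41 members, 28 of them msp, where 16% of all probe sets did so.

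The largest fall belonged to the probe set shared by msp-113 and msp-65. Its level in N2 was 12.02, 10.19, 11.73 and 10.06 on the arrays of 2007 and 5.00, 6.94, 5.61 and 5.00 on those of 2008. It fell by 5.36 on the log2 scale (SE 0.57, limma adjusted p = 1.78e-05), which was the lowest year difference of all 22548 probe sets in N2. A second probe set, for msp-65 alone, fell by 4.89 (SE 0.68, adjusted p = 1.42e-04). Both were deposited with values below 0 on some arrays of 2008, so that the size depends on the added constant: with 1 in place of 32 the first fell by 8.30, and with 100 it fell by 4.12.

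Some other msp probe sets, though not all, kept a signal above 0 on the N2 arrays of both years. That of msp-55 stood at 11.83, 9.78, 11.76 and 9.85 in 2007 and at 5.82, 7.30, 5.79 and 6.31 in 2008, and fell by 4.50 (SE 0.77, adjusted p = 6.77e-04). The probe set shared by msp-51, msp-53, msp-57 and msp-55 fell by 4.47 (SE 0.84, adjusted p = 1.32e-03). For both the groups of years did not overlap. At the other end, msp-63 fell by 1.43 (SE 0.46, adjusted p = 0.0328), and 2 probe sets for msp-32 by 2.25 and 1.69. The 3 msp probe sets that did not pass, those of msp-64, msp-49 and msp-142, differed by -2.05, -1.92 and -1.64, with adjusted p of 0.0836, 0.0729 and 0.197. They were at 5.00 on all 4 N2 arrays of 2008, and in 2007 replicates 1 exceeded replicates 2, as for msp-142 with 8.37, 5.00, 8.03 and 5.17.

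The deposited intensities show what the normalization does to these values. For msp-55 they were 514, 143, 918 and 161 on the N2 arrays of 2007 and 48.1, 319, 65.3 and 83.9 on those of 2008. The ranges of both years overlapped, although the median intensity of an array was many times higher in 2008. Without scaling between arrays, the median difference of all probe sets between years was 2.05 in N2, 2.06 in xpa-1 and 1.53 in glp-1, and that of the msp probe sets was -0.49, -0.48 and 1.68. Relative to the shift of all probe sets, msp was thus lower by more than 2 on the log2 scale in N2 and xpa-1 and close to it in glp-1.

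**Figure D2:**
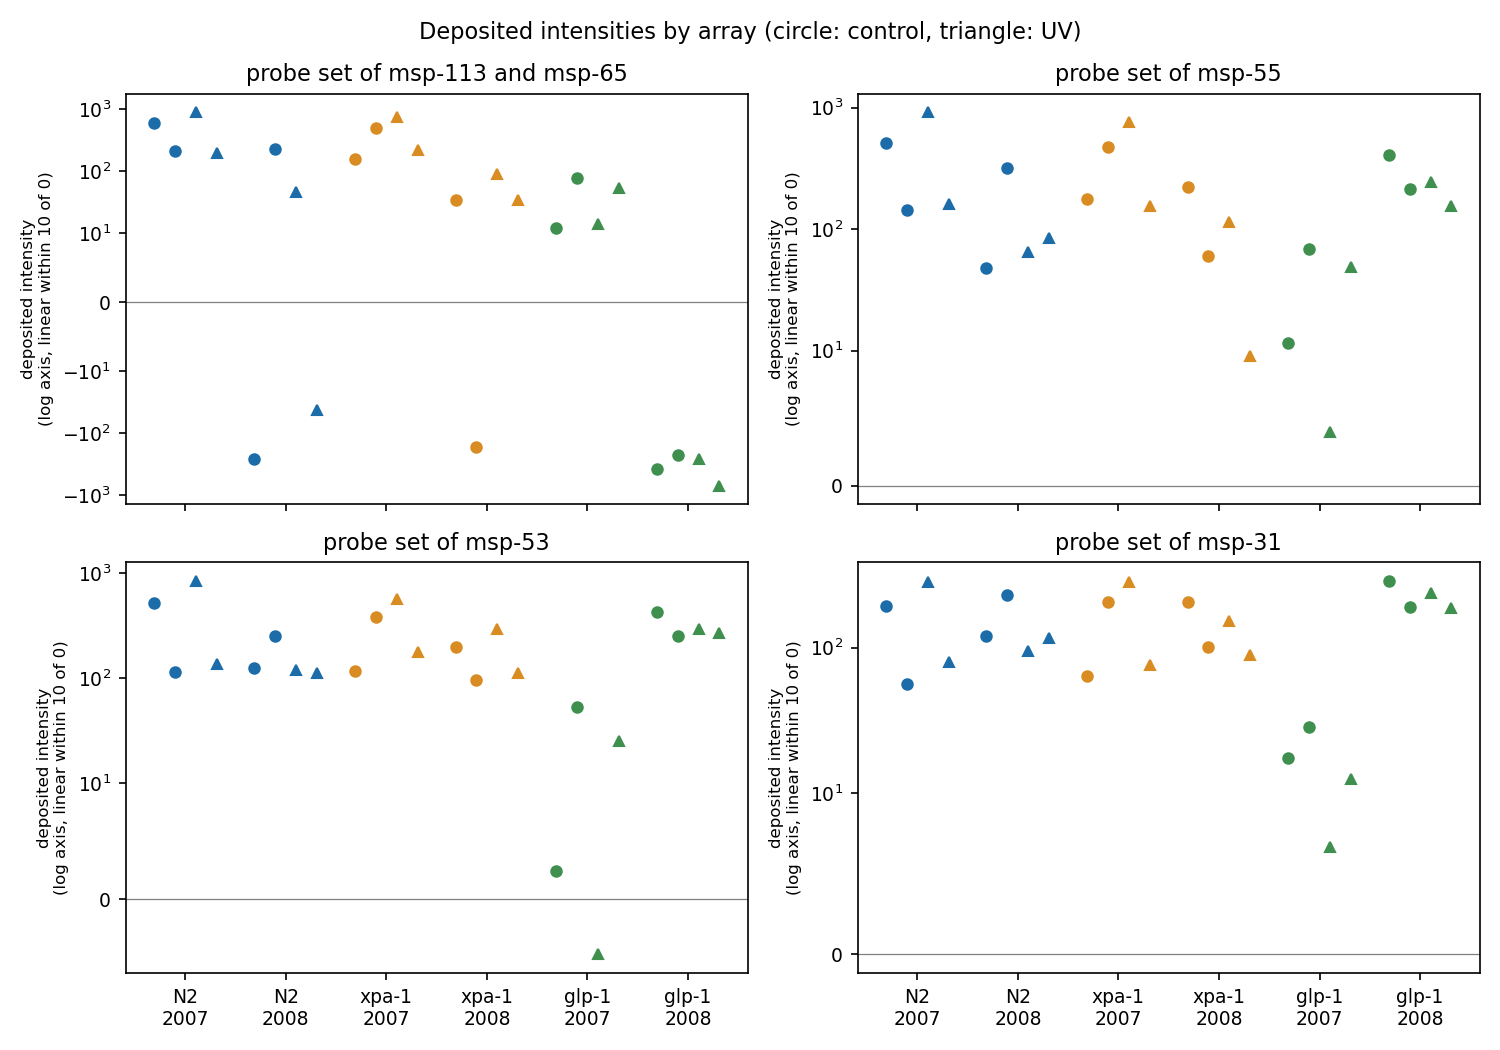
Deposited intensities of 4 msp probe sets on all 24 arrays (circles control, triangles UV), on an axis that is logarithmic except within 10 of 0. In N2 and xpa-1 the intensities of 2008 overlap or lie below those of 2007 although array medians were at most 8.42 in 2007 and at least 68.9 in 2008, the glp-1 intensities of msp-55, msp-53 and msp-31 do rise, and the set of msp-113 and msp-65 was deposited below 0 on all 4 glp-1 arrays of 2008.

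The msd genes encode small proteins with a major sperm protein domain. In N2 the probe set shared by msd-3 and msd-1 was at 8.98, 6.98, 8.86 and 7.09 in 2007 and at 5.67, 5.58, 5.00 and 5.77 in 2008, a fall of 2.47 (SE 0.51, adjusted p = 2.43e-03). The sets of msd-2 and msd-4 fell by 2.18 (SE 0.53, adjusted p = 7.43e-03) and 1.58 (SE 0.45, adjusted p = 0.0193). The set naming msd-2, msd-3 and msd-1 together differed by -1.07 and did not pass (adjusted p = 0.0744). Without scaling, where all probe sets shifted by a median of 2.05, the first 3 stood at 0.018, 0.0039 and 0.43, so their fall is relative to that shift. As for msp, replicate 1 was above replicate 2 in both treatments of 2007 in all 4 sets.

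Of the ssp genes, which encode further small proteins of the same domain, ssp-31 fell by 1.47 (SE 0.29, adjusted p = 2.01e-03), ssp-16 by 1.14 (SE 0.35, adjusted p = 0.0249) and ssp-37 by 0.93 (SE 0.25, adjusted p = 0.0126). Levels of ssp-31 in N2 were 7.40, 6.97, 7.03 and 6.80 in 2007 and 5.64, 5.39, 5.45 and 5.83 in 2008, so the years were separated, but with log2(value + 1) the difference did not pass (adjusted p = 0.0646). The fall of ssp-37, from 8.72, 8.45, 9.17 and 8.50 to 7.26, 7.96, 7.91 and 7.98, was smaller, and under median centring its difference was 0.44 in the other direction. The other 7 ssp sets did not pass, with differences from -1.67 for the set of ssp-11 and ssp-9 to 0.11 for ssp-33.

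The spe genes act in different steps of sperm formation, activation and fertilization, and most of their probe sets gave little signal. In N2 the mean level was under 6 for 17 of 30 in 2007 and for 23 in 2008, so few differences could have been detected. Of all probe sets 12% were called lower in this comparison, so the few spe falls do not set the family apart. Those that passed were spe-18 at 1.38 (SE 0.33, adjusted p = 6.79e-03), spe-51 at 1.18 (SE 0.37, adjusted p = 0.0296) and spe-40 at 1.15 (SE 0.28, adjusted p = 8.52e-03). So did spe-21 at 1.14 (SE 0.35, adjusted p = 0.026) and spe-48 at 1.02 (SE 0.18, adjusted p = 1.03e-03). Without scaling, where most probe sets were higher in 2008, spe-18, spe-51, spe-40 and spe-21 stood at 0.74, 0.16, 0.55 and 1.04. SPE-18 is needed for the fibrous body assembly of major sperm protein in spermatocytes, and SPE-51 is a secreted sperm protein of fertilization. Levels of spe-18 in N2 were 7.68, 6.89, 7.65 and 5.95 in 2007 and 5.19, 5.67, 5.75 and 6.03 in 2008, so that UV replicate 2 of 2007 lay below 1 array of 2008. With log2(value + 1) neither spe-18 (adjusted p = 0.124) nor spe-40 (adjusted p = 0.0678) passed.

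The probe set of spe-39 moved the opposite way. SPE-39 is a vesicle trafficking protein that works in many tissues as well as in spermatocytes. Its level in N2 was 8.85, 9.37, 9.40 and 9.43 in 2007 and 10.24, 10.30, 10.16 and 10.52 in 2008, a rise of 1.04 (SE 0.23, adjusted p = 4.06e-03), and the years did not overlap.

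Further spe genes with known roles did not pass between years in N2. Those of spermatocyte organelles were spe-4, a presenilin relative, at -0.40, spe-5, a subunit of the vacuolar proton pump, at -0.48, spe-10, a palmitoyltransferase, at -0.39, and spe-15, a myosin, at -0.42. The casein kinase relative spe-6 stood at -0.34, the kelch protein gene spe-26 at -0.27 and the transcription factor gene spe-44 at -0.36. In the activation and fertilization steps, the kinase gene spe-8 stood at -0.93, spe-9, which encodes a membrane protein of fertilization, at -0.70, the paternal embryo factor spe-11 at -0.85, spe-38, a further membrane protein of fertilization, at 0.04, and the calcium channel gene spe-41 at -1.33. Standard errors of these were 0.24 to 0.54 and adjusted p were 0.0742 to 0.958. Probe sets for spe-8 and spe-11 were at or near 5.00 in 2008, and spe-42 was not analysed here.

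**Figure D3:**
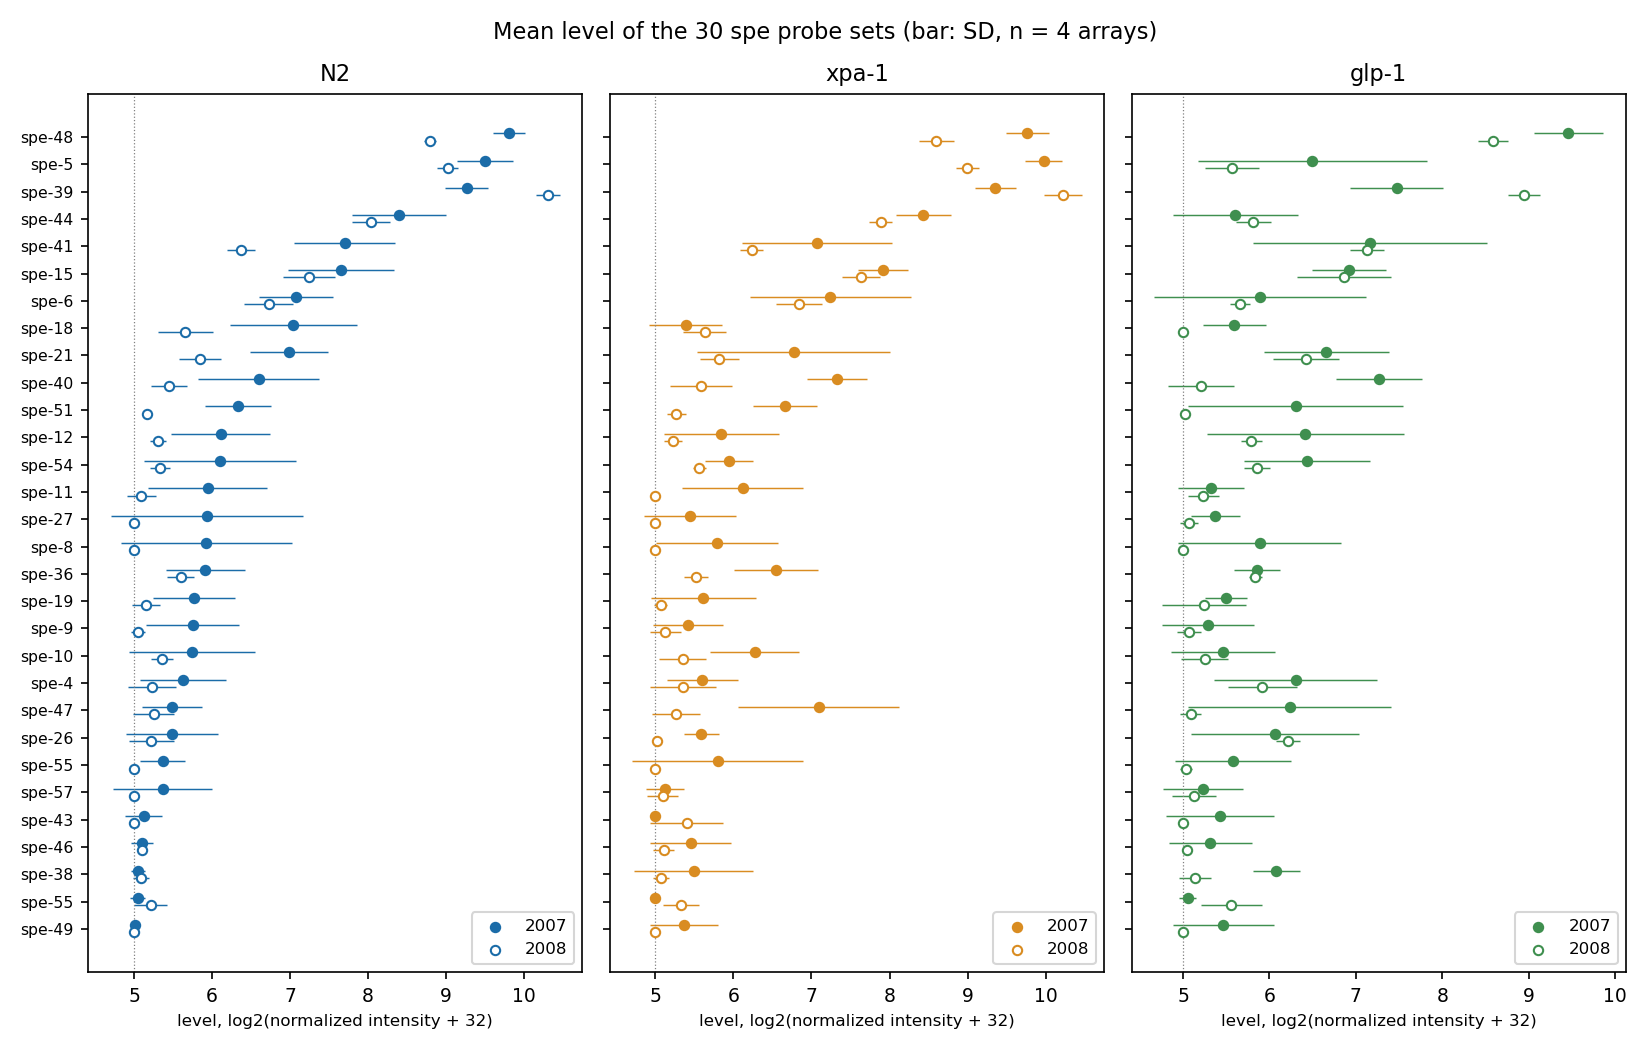
Mean level of the 30 spe probe sets in each strain, as log2(normalized intensity + 32), for 2007 (filled) and 2008 (open), with the SD over 4 arrays as a bar and the lowest possible level of 5.00 as a dotted line. Most sets lie below 6, spe-39 is higher in 2008 in each strain, and spe-5 and spe-44 are low in glp-1 in both years.

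In the xpa-1 mutant the year comparison called 44 members, 43 lower and 1 higher, against 16.3% of all probe sets lower and 16.2% higher. The lower members were 27 msp, 4 msd, 4 ssp and 8 spe, and the msp median was -3.85. The set of msp-113 and msp-65 fell by 5.75 (SE 0.57, adjusted p = 5.85e-06), that of msp-65 by 5.26, that of msp-55 by 5.11 and the shared set of msp-51, msp-53, msp-57 and msp-55 by 4.69. All 4 arrays of 2007 lay above all of 2008 for 44 members, 27 of them msp, against 16.5% of all probe sets.

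Outside msp, the msd sets of the xpa-1 mutant fell by 1.95 to 3.05. The set of ssp-11 and ssp-9 fell by 2.71 (SE 0.68, adjusted p = 7.35e-03) and ssp-34 by 1.55 (SE 0.46, adjusted p = 0.018), and ssp-37 and ssp-31 each by 0.87, the latter with an adjusted p of 0.544 under log2(value + 1). The largest falls among spe were spe-47 at 1.82, whose product holds a major sperm protein domain, spe-40 at 1.74, spe-51 at 1.39 and spe-48 at 1.16, and spe-39 rose by 0.87 (SE 0.23, adjusted p = 0.0101). The year difference of the xpa-1 mutant did not pass against that of N2 for any member in limma (0 called, 0.071% of all probe sets called in either direction, 3 members at an unadjusted p under 0.05). For msp the difference between these year differences ranged from -1.66 to 0.95, with a median standard error of 0.97.

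In glp-1 animals the year comparison called 10 members, 8 lower and 2 higher, against 14.6% and 15.5% of all probe sets. Of the msp sets 3 fell, that of msp-113 and msp-65 by 4.23 (SE 0.57, adjusted p = 8.98e-05), that of msp-65 by 3.38 and that of msp-50 by 1.33, while the msp median was -0.16 and 11 of 31 differences were above 0. The first of these stood at 8.12, 9.81, 8.72 and 10.28 in 2007 and at 5.00 on all 4 arrays of 2008, where it had been deposited at -226 to -703. No msd set passed.

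Some members outside msp were called between years in glp-1 as in the other strains. The counts of called members in glp-1 lay below the shares of all probe sets, so they do not set the members apart. The set of ssp-37 fell by 1.48 (SE 0.25, adjusted p = 4.67e-04), spe-40 by 2.06 (SE 0.28, adjusted p = 1.06e-04), spe-51 by 1.29 and spe-48 by 0.88, and spe-39 rose by 1.47 (SE 0.23, adjusted p = 2.84e-04). In addition spe-38 fell by 0.94 and 1 of 2 spe-55 sets rose by 0.51. With log2(value + 1) these and msp-50 did not pass, with adjusted p of 0.055, 0.0527 and 0.0565. For 8 members, 3 of them msp, all arrays of 2007 lay above all of 2008, where 12.6% of all probe sets did. Direction depended on the scaling for some of these: under median centring ssp-37 and spe-48 stood at 0.70 and 1.12 in glp-1 and at 0.93 and 0.74 in xpa-1, and the spe-55 set at -0.90 in glp-1. Without scaling, where most probe sets were higher in 2008, ssp-37 stood at 2.26 and spe-48 at 2.68 in glp-1.

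**Figure D4:**
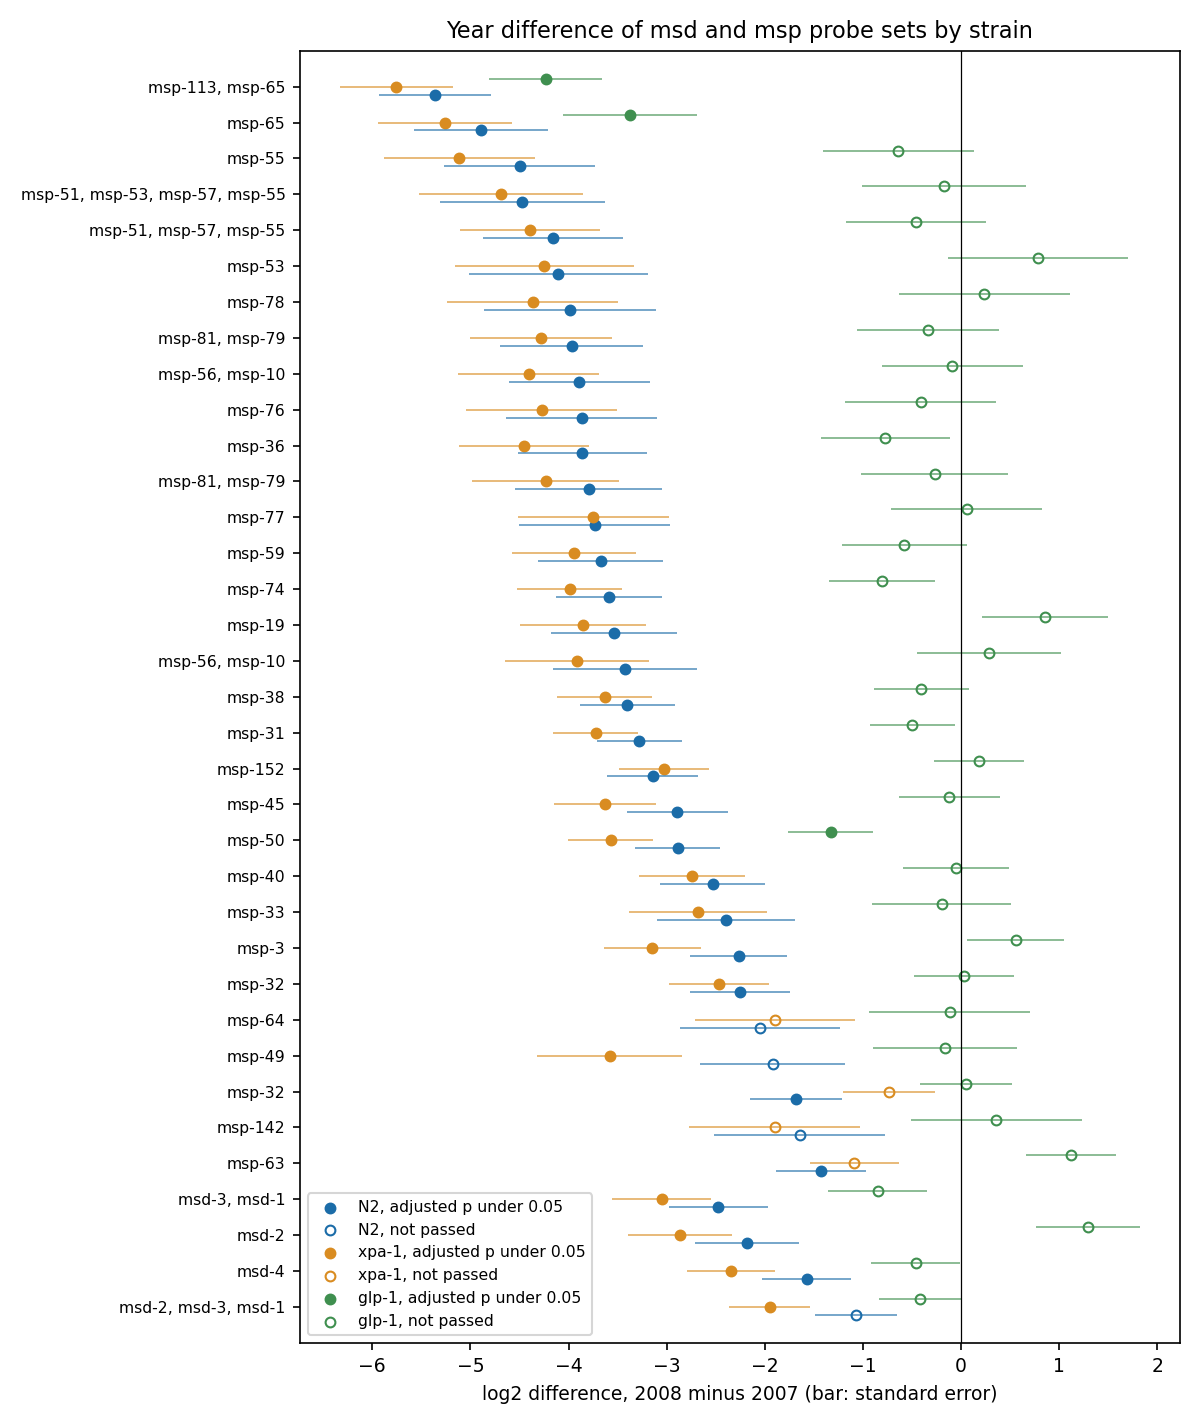
Log2 difference between years (2008 minus 2007) of the 31 msp and 4 msd probe sets in each strain, with standard errors as bars; filled points passed an adjusted p of 0.05. N2 and xpa-1 differences lie below 0 throughout, from -0.74 to -5.75, while most glp-1 differences lie within 1 of 0; those of the msp-113 and msp-65 set, msp-65 and msp-50 lie lower and those of msp-63 and msd-2 higher.

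The year difference itself was compared between glp-1 and N2. It was higher in glp-1 for 15 members, 13 msp, msd-2 and ssp-31, and lower for 0, where 3.16% of all probe sets were called higher. All 31 msp differences were above 0, with a median of 3.00. Among the called sets the largest were msp-53 at 4.89 (SE 1.29, adjusted p = 0.0394) and msp-19 at 4.39 (SE 0.90, adjusted p = 0.0113), followed by the shared set of msp-51, msp-53, msp-57 and msp-55 at 4.30 and 1 of 2 shared sets of msp-56 and msp-10 at 3.80. Levels of msp-53 in glp-1 were 5.79, 9.42, 5.00 and 9.54 in 2007 and 8.85, 8.02, 8.10 and 7.91 in 2008, against 11.86, 9.57, 11.67 and 9.67 and then 6.55, 7.06, 6.19 and 6.55 in N2.

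No spe member was called, with differences of -0.98 to 1.29. The count of 15 depended on the arrays of 2007. In a fit added after seeing the data, it was 2 with both N2 arrays of that year numbered 1 left out, and 26 with both numbered 2 left out. It was 8 with the replicate block, 4 with log2(value + 1), and 1 on control arrays alone and 1 on UV arrays alone. Shares of all probe sets under these settings are not given, so a change in the members cannot be told from a change in all calls.

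In 2007 glp-1 animals held less msp signal than N2. Of the 75 members 36 were called, 33 lower and 3 higher, against 20.4% of all probe sets lower and 22.7% higher, with a median of 0.12 over all. The lower members were 24 msp, 2 msd, 2 ssp and 5 spe, and all 31 msp differences were below 0 with a median of -2.02. The largest were msp-53 at -3.25, msp-19 at -3.12 (SE 0.64, adjusted p = 1.03e-03), a set of msp-56 and msp-10 at -2.96 and msp-78 at -2.79. Yet glp-1 and N2 arrays overlapped for most: all glp-1 arrays lay below all N2 arrays for 11 members, 7 of them msp, where 16.1% of all probe sets did so.

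This comparison was also sensitive to the arrays in the fit. The main fit used 1 spread per probe set for both years, whereas the median msp SD was 0.981 in 2007 and 0.354 in 2008. Standard errors and p-values of 2007 alone may therefore be too small. The count was 17 to 44 when 1 array was left out, and 13 when both N2 arrays numbered 1 were left out. It was 9 when only the arrays compared entered the fit, which used the spread of 2007 alone. Shares of all probe sets under these settings are not given. In msp-53 the glp-1 arrays spanned 5.00 to 9.54, and the highest of them was just below the lowest N2 array, at 9.57.

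In 2008 most msp differences had the opposite sign, but of the msp sets only msp-152 and msp-31 passed. Those of msp-53 at 1.63 and msp-55 at 1.61 did not (limma adjusted p = 0.185 and 0.115). The share of all probe sets above 0 is not given here. The msp difference between glp-1 and N2 was above 0 for 29 of 31 probe sets, with a median of 0.98 against 0.06 over all probe sets, and below 0 for the sets of msp-113 and msp-65 and of msp-65 alone. Over all members 5 were called higher and 3 lower, against 21.7% and 20.6% of all probe sets. The msp members among them were msp-152 at 1.69 (SE 0.46, adjusted p = 7.72e-03) and msp-31 at 1.303 (SE 0.43, adjusted p = 0.0244). Levels of msp-31 were 8.33, 7.66, 7.81 and 7.49 in glp-1 and 6.50, 6.95, 6.03 and 6.59 in N2, without overlap.

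Spread was smaller in 2008, and a fit with only the arrays compared used that spread alone. It called 28 members higher, 18 of them msp, and 6 lower, all spe, but also 30.1% of all probe sets higher and 25.9% lower. All glp-1 arrays of 2008 lay above all N2 arrays for 23 members, 15 of them msp, against 28.6% of all probe sets. On the means of 4 arrays, 29 of 31 msp sets were highest in glp-1 among the 3 strains in 2008, and 0 of 31 in 2007. The share of all probe sets highest in glp-1 by means is not given here, and the msp sets largely repeat 1 measurement. All glp-1 arrays of 2008 lay above all N2 and xpa-1 arrays for 15 msp sets, against 25.5% of all probe sets.

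**Figure D5:**
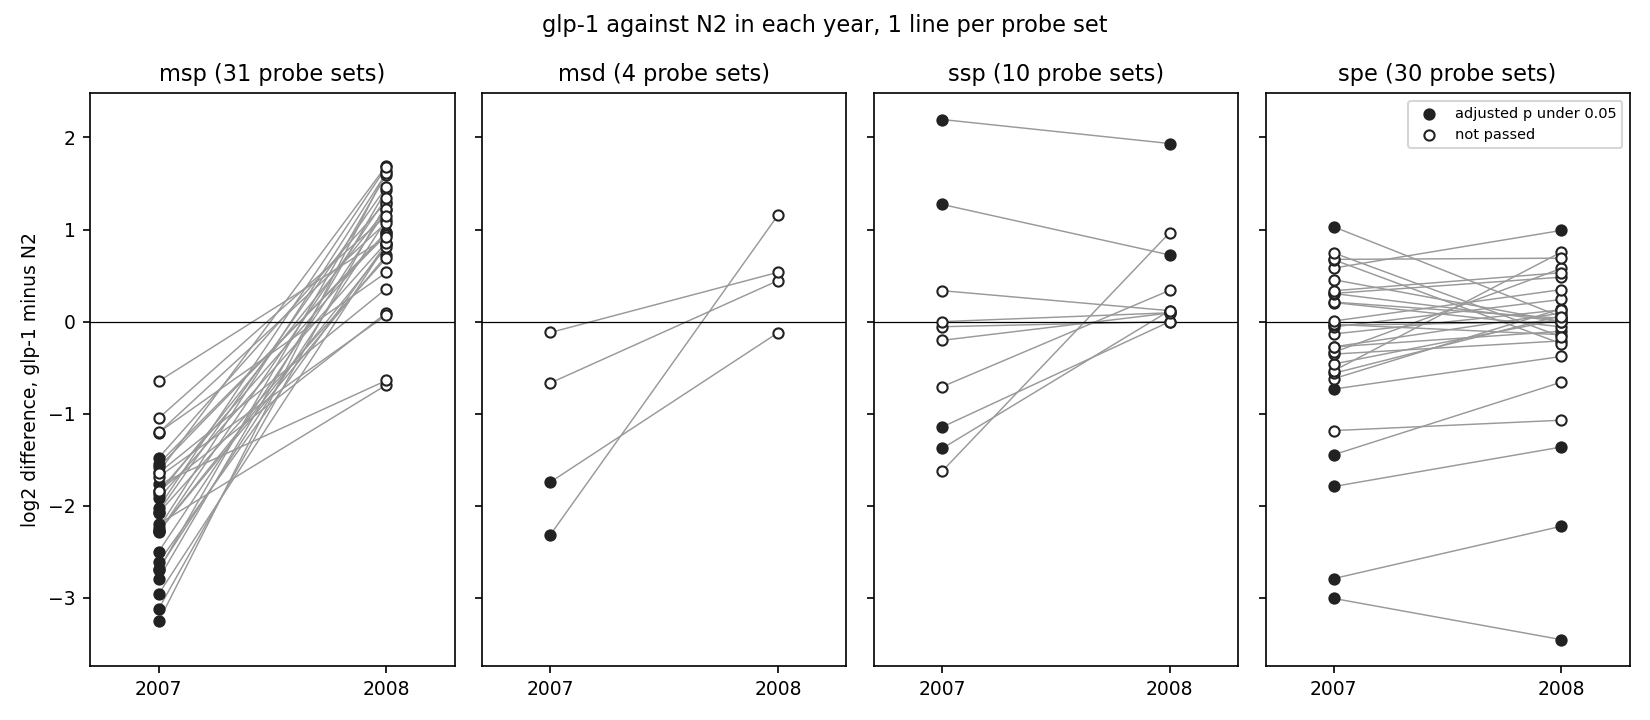
Log2 difference between glp-1 and N2 in 2007 and in 2008, with 1 line per probe set and 1 panel per family; filled points passed an adjusted p of 0.05. The msp differences lie at -0.65 to -3.25 in 2007 and at -0.69 to 1.69 in 2008, while ssp-10 stays above 0 and spe-5, spe-44 and spe-39 below 0 in both years.

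Some members differed between glp-1 and N2 in the same direction in both years. The proton pump gene spe-5 differed by -3.01 in 2007 (SE 0.45, limma adjusted p = 7.07e-05) and by -3.45 in 2008 (adjusted p = 1.78e-05). Its levels in 2008 were 8.91, 8.91, 9.19 and 9.07 in N2 and 5.15, 5.74, 5.86 and 5.52 in glp-1. The transcription factor gene spe-44 differed by -2.79 in 2007 (SE 0.32, adjusted p = 5.76e-06) and -2.22 in 2008 (adjusted p = 4.86e-05), and spe-39 by -1.79 and -1.36.

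Higher in glp-1 in both years were ssp-10, at 2.19 (SE 0.33, adjusted p = 7.51e-05) and 1.93 (adjusted p = 2.22e-04), and ssp-37, at 1.27 (adjusted p = 6.54e-04) and 0.72 (adjusted p = 0.0279). Levels of ssp-10 were 9.89, 9.35, 9.81 and 8.87 in glp-1 against 7.17, 7.71, 7.66 and 6.60 in N2 in 2007, and 8.40, 9.27, 8.66 and 9.04 against 6.77, 7.25, 6.77 and 6.85 in 2008. The groups did not overlap in either year. For ssp-37 they did overlap in 2008, where glp-1 control replicate 1 was at 7.26, and its call of that year was lost with only the arrays compared in the fit (adjusted p = 0.132) and with log2(value + 1) (adjusted p = 0.0584). Called in 1 year only were spe-38 in 2007, at 1.03, and spe-26 in 2008, at 0.99, and the difference between the years passed for neither. Lower in 2007 were also msd-2 at -2.31, the set of msd-3 and msd-1 at -1.74, ssp-31 at -1.38, ssp-16 at -1.14, spe-18 at -1.44 and spe-15 at -0.73, of which ssp-31 (adjusted p = 0.0504) and spe-18 (adjusted p = 0.0621) did not pass with log2(value + 1).

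The xpa-1 mutant and N2 held similar levels of most members. In 2007 1 member was called, spe-18, which differed by -1.65 on the log2 scale (SE 0.33, limma adjusted p = 0.0307), against 0.621% of all probe sets lower; levels in xpa-1 were 5.00, 5.65, 5.91 and 5.00. The count of 1 held under 5 of 17 other settings and was 0 under the rest. The msp differences were above 0 in 28 of 31 but none passed, with a median of 0.50, and xpa-1 lay above N2 on all arrays for 0 members, against 1.45% of all probe sets. In 2008 limma called 0 members, 0 at an unadjusted p under 0.05, where 0.00887% of all probe sets were called, and the msp differences were -0.21 to 0.41.

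UVC did not produce a called change in any member 3 h after exposure. In N2, xpa-1 and glp-1 limma called 0 of 75 members each, where 0.031%, 0.288% and 1.01% of all probe sets were called in either direction, and 1, 2 and 3 members had an unadjusted p under 0.05. The msp differences ranged from -0.48 to 0.15 in N2, from -0.50 to 0.78 in xpa-1 and from -0.70 to 0.87 in glp-1, with a median standard error of 0.68, so that changes of that size would not have been detected. By year, the msp median was within 0.02 of 0 in each strain in 2007. In 2008 it was -0.30 in N2, with 26 of 31 below 0, -0.12 in xpa-1, with 21 of 31, and -0.34 in glp-1, with 26 of 31. UV and control arrays did not overlap for 1, 8 and 6 of these 31 sets in 2008, against 28.9%, 33.5% and 33.3% of all probe sets.

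Sperm genes outside the families were read from a list of 32, of which 19 were measured. Between years in N2 3 fell and 0 rose, with a median of -0.49, where 12% of all probe sets fell. In xpa-1 5 fell, where 16.3% of all did, and in glp-1 4 fell and 1 rose, where 14.6% of all fell. The falls in N2 were smz-1 at 2.15 (SE 0.45, adjusted p = 2.95e-03), gsp-4 at 1.66 (SE 0.46, adjusted p = 0.0156) and nspd-1 at 2.28 (SE 0.72, adjusted p = 0.0323). Here gsp-4 encodes a sperm protein phosphatase and smz-1 a sperm PDZ protein. The mean level of the list was 6.16 to 7.28 on N2 arrays of 2007 and 5.94 to 6.10 in 2008.

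The named genes of this list differed in glp-1. In N2 gsp-4 was at 8.18 and 6.12 on the N2 control arrays of 2007 and at 8.14 and 7.70 on the UV arrays, against 5.72 to 6.09 in 2008. In glp-1 it was at 5.00 to 6.46 in 2007 and 6.16 to 6.64 in 2008, and its year difference was 0.53 (adjusted p = 0.412). By contrast smz-1 fell in glp-1 too, by 1.84 (SE 0.45, adjusted p = 6.88e-03), from 6.54, 7.34, 5.96 and 7.53 in 2007 to 5.00 on all 4 arrays of 2008.

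Markers of other cells and stages were read between years in N2, where 13.2% of all probe sets were called higher and 12% lower. Of 17 oocyte and eggshell genes 4 rose and 0 fell, with a median of 0.14, among them oma-2 at 1.47, oma-1 at 1.16 and puf-5 at 1.43, which encode oocyte RNA-binding proteins. Of 13 genes of male somatic tissue 3 fell and 0 rose, with a median of -0.40 and a mean level of 5.69 to 6.31 in 2007 and 5.57 to 5.63 in 2008, where 1 of 13 was at 5.00 on all N2 arrays of 2007 and 2 on all of 2008. The falls were cwp-5 at 1.04, dmd-3 at 1.72 and swm-1 at 0.55. Whether males or late larvae were among the animals was not tested.

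The remaining lists held counts of rises and falls between years in N2 as follows, against 13.2% and 12% of all probe sets. Genes of the mitotic and meiotic germ line had 5 and 5 of 23, with pgl-1 at 2.25, gld-2 at -0.90 and syp-4 at -1.13. Genes of sex determination and of the switch from sperm to oocytes had 4 and 7 of 23, with tra-1 at 3.02, fem-2 at -1.51 and fem-1 at -1.17. Genes that receive the sperm signal had 3 and 2 of 15, with mpk-1 at -1.31, gsa-1 at 2.41 and efn-2 at 1.92.

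Somatic lists and embryo genes are given for the same comparison, with the same shares of 13.2% higher and 12% lower over all probe sets. Body wall muscle had 5 rises and 2 falls of 10, with unc-54 at 1.96, mlc-2 at 1.74 and tni-1 at 2.44. Neurons had 5 and 2 of 11, with rab-3 at 1.35, ida-1 at 1.85 and unc-64 at 0.91. The 2 falls in each of these lists are not among the genes named. The intestine had 2 and 2 of 12, with mtl-2 at -1.69, asp-1 at 1.51 and ges-1 at -0.92. Early embryo genes had 0 and 2 of 15, with pes-10 at -1.46, sdz-23 at -1.69 and pes-1 at -0.82, the last not passed. In glp-1 against N2, 15 of 17 oocyte genes and 23 of 23 genes of the mitotic and meiotic germ line were lower in 2007, and 15 and 22 in 2008. Of all probe sets, 20.4% were called lower in 2007 and 20.6% in 2008.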

How the data were processed

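The intensity values are those the authors deposited, 1 table of 22548 probe sets and 24 columns, all of them mapped to samples by title (0 columns of no sample). Per the labels' protocols, biotin-labelled RNA was amplified with different kits in 2007 and 2008. Array summary, background and scaling: not given in the sources used here. Probe sets were named from the supplied platform table: 20766 named 1 gene, 887 several and 895 none. Updating symbols from the supplied gene table of assembly WBcel235 changed 0.

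Values were quantile normalized over 24 arrays, set to 0 below 0 and taken as log2(value + 32); 15.5% of normalized values were at or below 0. limma 3.58.1 (R 4.3.3) fitted the 12 group means, with 12 residual and 2.18 prior degrees of freedom. Year and strain comparisons averaged control and UV, and UV comparisons averaged years. Tests were two-sided, adjusted over all probe sets by Benjamini-Hochberg. Numbers of arrays limit the precision. The fit was tested on simulated data.

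The members, the lists and the comparisons were chosen with earlier results of these data known. In each comparison and family the 4 largest called rises and 4 largest called falls were named, with 14 spe genes always and 3 genes per other list. Replicate numbers were not taken to pair the arrays, since not every correlation passed 0.1: the differences between replicates 1 and 2 correlated between groups at -0.15 to 0.185 in 2007 and 0.0293 to 0.438 in 2008, above 0.1 in 3 and 11 of 15 pairs. In 2008 all 6 pairs among N2 and xpa-1 groups did so, at 0.209 to 0.438, and 5 of 9 pairs with a glp-1 group. Alternatives changed the scaling, the constant, the filter, the variance model, the arrays and the threshold. Sequences were not used here.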

Additional observations from a re-analysis of the deposited data

Results flagged for a closer look

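The difference between years depended on the strain: compared between glp-1 and N2 in the same limma fit, it passed for 15 members, all higher in glp-1. Those named by the rule were msp-53 at 4.89, msp-19 at 4.39, the set shared by msp-51, msp-53, msp-57 and msp-55 at 4.30, a set of msp-56 and msp-10 at 3.80, msd-2 at 3.47 and ssp-31 at 1.498, all on the log2 scale. With log2(value + 1), 5 of these 6 did not pass: adjusted p was 0.119 for msp-53, 0.0675 for msp-19, 0.0758 for the msp-51 set, 0.0755 for the msp-56 set and 0.312 for ssp-31, against 0.0108 for msd-2. Replicates of 2007 spread more than those of 2008, and year, RNA input and kit cannot be told apart.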

How the results depend on the processing

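Signal near background and 2 arrays a group limit these values. Counts of called members kept within 1.5 times of the main value except as follows, and the causes were not tested. With values as deposited they were 23 (N2 years, 21 higher and 2 lower), 26 (xpa-1 years, 22 and 4), 47 (glp-1 years, 47 and 0), 28 (year difference of glp-1 against N2), 17 (glp-1 against N2 in 2008, 6 and 11) and 0 (xpa-1 against N2 in 2007). Of all probe sets, 78.8%, 77.8%, 72.5%, 29.4%, 56.1% and 0.0222% were called there, and 78.6%, 77.5% and 72.3% of all were called higher in the 3 year comparisons. Median centring gave 72, 73, 47, 57, 67 and 0 in that order, with 67 of 72 lower in N2 and 60 of 67 higher in the fifth, where 85.1%, 87.9%, 86.9%, 59.7%, 81.2% and 1.58% of all were called (45.7% lower in N2, 55.5% higher in the fifth). The count of 1 for xpa-1 against N2 in 2007 was also 0 under scaling to the 75th percentile, quantile normalization within each year, log2(value + 1), the dimmest 40% left out, array weights, a term for year, only the arrays compared, control arrays alone, UV arrays alone and an adjusted p under 0.01.

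For glp-1 against N2 in 2007 the count was 14 under quantile normalization within each year and 15 with array weights. It was 9 with only the arrays compared, 13 on control arrays, 17 on UV arrays and 17 at 0.01. In 2008 the count was 40, 41, 34, 5 and 5 under the same settings but the last. The 34 were 28 higher and 6 lower, where 30.1% of all probe sets were called higher and 25.9% lower. Shares of all probe sets under the other settings of this paragraph are not given, so these counts do not set the members apart. A term for year fits 1 strain difference over both years and says nothing of either year; it called 13 for glp-1 against N2, with msp-31 at -0.088. The year difference of glp-1 against N2 gave 4 with log2(value + 1), 8 with only the arrays compared, 1 on control arrays, 1 on UV arrays and 1 at 0.01. The years in N2 gave 18 on control and 20 on UV arrays, in xpa-1 29 on UV arrays, and in glp-1 6 at 0.01. With the replicate block the year difference of glp-1 against N2 gave 8, and no other count moved by over 1.5 times.

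In fits added after seeing the data, leaving out both N2 arrays of 2007 numbered 1 gave 24 (N2 years), 2 (year difference, glp-1 against N2), 1 (year difference, xpa-1 against N2) and 13 (glp-1 against N2 in 2007), and those numbered 2 gave 26 and 2 for the year differences. Leaving out the glp-1 arrays numbered 1 gave 19 (glp-1 years) and 21 (glp-1 against N2 in 2007), and those numbered 2 gave 18 (glp-1 years) and 24 (year difference). Leaving out xpa-1 arrays gave 1 and 1 for its year difference. Shares of all probe sets are not given for these fits, nor for those that leave out 1 array at a time. Their counts therefore do not set the members apart.

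Leaving out 1 array at a time gave 33 to 49 for the years in N2, 38 to 46 in xpa-1, 8 to 13 in glp-1, 4 to 24 and 0 to 1 for the year differences of glp-1 and xpa-1 against N2, 17 to 44 and 6 to 11 for glp-1 against N2 in 2007 and 2008, 0 to 3 and 0 to 0 for xpa-1 against N2, and 0 to 0, 0 to 1 and 0 to 2 for UV in N2, xpa-1 and glp-1.

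Directions turned with values as deposited, where all probe sets shifted up. In N2 the year differences became 0.018 for msd-3 and msd-1, 0.0039 for msd-2, 0.43 for msd-4, 0.64 for ssp-31, 2.62 for ssp-37, 0.74 for spe-18, 0.16 for spe-51, 0.55 for spe-40 and 1.04 for spe-21. In xpa-1 they became 0.15 for msd-4, 0.30 for ssp-11 and ssp-9, 0.11 for ssp-34, 3.05 for ssp-37, 0.79 for ssp-31, 0.079 for spe-47, 0.54 for spe-40, 0.27 for spe-51 and 2.86 for spe-48. In glp-1 they became 1.56 for msp-50, 2.26 for ssp-37, 0.0087 for spe-38 and 2.68 for spe-48, and ssp-37 stood at -0.19 for glp-1 against N2 in 2008. Median centring turned ssp-37 to 0.44 in N2, 0.93 in xpa-1 and 0.70 in glp-1, spe-48 to 0.74 in xpa-1 and 1.12 in glp-1, msp-50 to 0.0014 and spe-55 to -0.90 in glp-1. UV arrays alone put ssp-31 at 0.012 in xpa-1.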
